A study of Mus musculus with 12 samples.

Results

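Skeletal muscle of mice that lack αB-crystallin and HspB2 (KO) was compared with that of wild-type (WT) mice while both were kept on normal chow. The comparison holds 6 libraries, 3 per genotype, out of the 12 of the series, whose other 6 come from the same genotypes on high fat diet. Every gene symbol of these libraries, 22923 in all, belongs to the comparison, and the 11945 symbols with at least 1 FPKM (fragments of a transcript, scaled to its length and to the library size) in at least 3 of the 12 libraries were tested. All mice were males on the FVB/N background (labelled FVB) at 22 weeks of age, and the RNA came from the proximal hind limb. Libraries were placed by their titles, KO-control and Flox-control, where the Flox mice are the WT littermates. A separate genotype field goes against the title in 6 of the 12 samples, of which 1, KO replicate 3, is on normal chow. The KO is a germline loss of both genes in the whole body from birth, so the effects of the 2 genes cannot be told apart, nor can those of muscle and of other tissues. The samples are described as independent, and the sources used here do not say that any were pooled.

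αB-crystallin (Cryab) and HspB2 (Hspb2) are small heat shock proteins, chaperones that hold unfolding proteins without using ATP. Both are abundant in striated muscle, where αB-crystallin binds desmin, actin and titin and gathers at the Z-disc and on titin when the fibre is stretched or stressed. Their genes lie head to head and share a short stretch of promoter, and both were removed in these mice. The comparison asks what else differs in the muscle RNA once both are gone and the diet is ordinary.

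Genotype differences are given as log2 fold changes, KO minus WT, on the log2(FPKM + 1) scale, with the standard error (SE) from limma. That scale understates the change of genes with low values. Triplets of values are FPKM in replicates 1, 2 and 3. A gene is said to have risen or fallen only where its Benjamini-Hochberg adjusted p was under 0.05. For the many genes that did not pass, "higher" or "lower" is a description at an unadjusted p under 0.05, and the adjusted p is printed. Genes are mapped to mouse build GRCm38 with GENCODE M21. Reads are not known to carry strand, so a gene and an annotated antisense partner cannot be told apart.

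The libraries were unequal in the other cells they held, within each genotype as well as between genotypes. Summed over 11 B cell markers (such as Ms4a1 and Cd79a), FPKM was 2.27, 70.4 and 2.06 in WT and 77.8, 2.18 and 81.4 in KO muscle. The sum of 13 T cell markers was 0.754, 58.6 and 1.47 in WT and 66.6, 1.94 and 67.0 in KO muscle. WT replicate 2 and KO replicates 1 and 3 thus carried lymphocyte RNA, and the other 3 libraries held almost none, with Blk, a B cell kinase, listed at 0 in all 3 of them and Pax5 at 0 in WT replicates 1 and 3. Lymph node stroma markers split the same libraries, 2.15, 57.8 and 4.41 in WT and 80.0, 4.34 and 94.7 in KO, and Glycam1 was listed at 0 in the 3 libraries poor in lymphocytes. Of 10 adipocyte markers, all 10 had a positive log2 fold change and 3 an unadjusted p under 0.05. Their sum was 608, 2228 and 1499 in WT and 4648, 2149 and 4261 in KO muscle, with KO replicate 2 within the WT range (exact two-sided permutation p = 0.2, where the smallest that 3 against 3 allow is 0.1). All 11 B cell and all 13 T cell markers had positive log2 fold changes too, of which 0 had an unadjusted p under 0.05, and all of them did without WT replicate 2 or without KO replicate 2. In whole muscle, fewer cells of a type and less RNA per cell cannot be told apart.

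Other cell types were distributed differently. The 18 Schwann cell and nerve markers summed to 116, 121 and 513 in WT and 420.3, 487 and 334 in KO muscle, so that WT replicate 3 stood with the KO libraries. Neutrophil markers summed to 3.01, 29.3 and 6.58 in WT and 138, 16.5 and 45.7 in KO, and macrophage markers to 198, 319.8 and 179 and 405, 285 and 453. Endothelial markers did not overlap, at 172, 177 and 170.1 in WT and 158, 154 and 158 in KO muscle (exact permutation p = 0.1). The tissue label held in every library. The summed FPKM of 10 muscle markers, without Acta1, which is listed at 0 in WT replicate 1, was 77064, 55674 and 67235 in WT and 48488, 65282 and 44029 in KO. KO replicates 1 and 3 were lowest in these muscle markers and highest in adipocyte and lymphoid markers. Relative depth, read from the step between low values, had a median of 1.09 in WT and 1.32 in KO libraries on a scale where the shallowest library is 1. Many results below are also given without the 3 libraries rich in lymphocytes or with the adipocyte sum as a covariate. Both were chosen after the data were seen. Without those 3 libraries, KO replicate 2 alone stands against WT replicates 1 and 3 on chow. For single genes and gene lists only the sizes of differences are printed from that fit. Its counts over all genes rest on that single KO library and are not comparable with the counts of other fits.

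**Figure D1:**
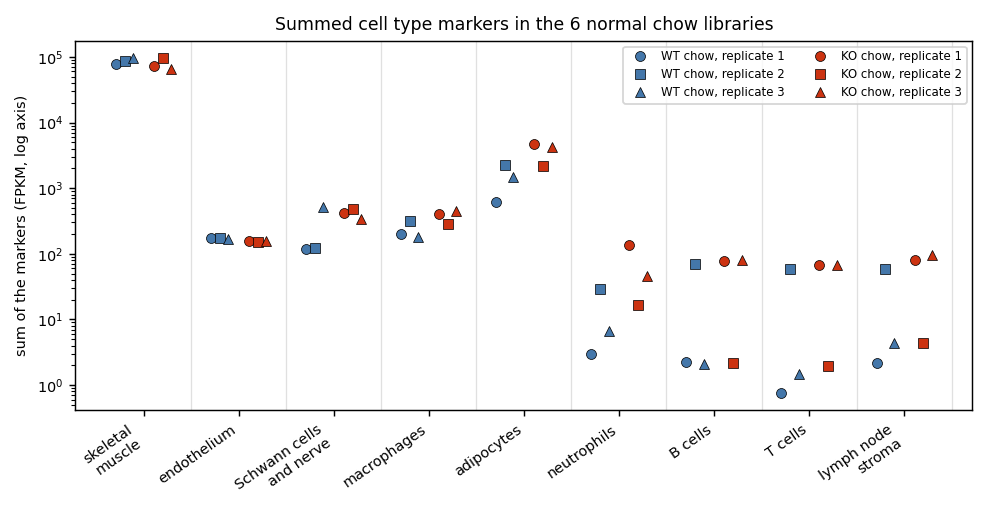
Sum of the marker genes of each cell type (FPKM, log axis) in the 6 normal chow libraries, blue for WT and red for KO, with circles, squares and triangles for replicates 1, 2 and 3. WT replicate 2 and KO replicates 1 and 3 lie between 57.8 and 94.7 for B cells, T cells and lymph node stroma, and the other 3 libraries lie under 5. The skeletal muscle sum includes Acta1.

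The deletion was visible in each library. Cryab (chr9:50751325-50756636, plus strand) was 561, 536 and 412 FPKM in WT and 0.845, 1.54 and 1.496 FPKM in KO muscle. Hspb2 (chr9:50751078-50752354, minus strand), which overlaps Cryab on the other strand, was 99.3, 81.5 and 90.2 in WT and 0.730, 0.353 and 0.460 in KO muscle. KO replicate 3, whose genotype field says wild type, thus stood with the other KO libraries for both genes. Cryab fell by 7.78 ± 0.17 (SE; adjusted p = 6.94e-10) and Hspb2 fell by 5.92 ± 0.21 (SE; adjusted p = 8.22e-08) on the log2 scale.

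Both neighbours that fell with them lie on the same stretch of chromosome 9. 2310030G06Rik (chr9:50739691-50746536, minus strand), a protein-coding gene next to Hspb2, was 4.15, 3.30 and 4.17 FPKM in WT and 0.277, 0.226 and 0.288 FPKM in KO muscle, a log2 fold change of -1.94 ± 0.12 (adjusted p = 2.98e-05). 2310014F07Rik (chr9:50488795-50507823, minus strand), annotated as antisense to Plet1, was 4.62, 4.02 and 2.98 in WT and 0.172, 0.226 and 0.107 in KO muscle, with -2.05 ± 0.16 (adjusted p = 0.000145). No WT library overlapped a KO library for either. Of 153 tested genes within 10 Mb of Cryab, 13 were higher and 18 lower at an unadjusted p under 0.05, and their median log2 fold change was -0.004. Mpzl2 (chr9:45039799-45054015, plus strand), a cell adhesion molecule of epithelia, had the next lowest p of this stretch and did not pass, at 0.342, 0.850 and 0.733 FPKM in WT and 1.96, 1.11 and 2.65 FPKM in KO muscle (0.80 ± 0.19 SE, adjusted p = 0.263). Its difference on high fat diet was -0.09 (adjusted p = 0.745).

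Beyond that locus, 3 genes passed the adjusted threshold, so that 7 of 11945 did in all (0.0586%), 2 of them higher (0.0167%) and 5 lower (0.0419%) in KO muscle. Serpina3h (chr12:104247905-104253669, plus strand) belongs to a cluster of serine protease inhibitors. It was 0.0941, 1.10 and 0.219 FPKM in WT and 5.26, 11.4 and 22.1 FPKM in KO muscle. Each KO library lay several times above each WT library, although the KO values themselves spanned a wide range. It rose by 3.11 ± 0.42 on the log2 scale (adjusted p = 0.0279). GENCODE lists it as a transcribed pseudogene among near-identical copies, so its value is uncertain. Of the 5 tested genes of the Serpina3 cluster, Serpina3i was the other one past an unadjusted p of 0.05, at 0, 0.154 and 0.122 FPKM in WT and 0.664, 1.36 and 2.58 FPKM in KO muscle (1.15 ± 0.24 SE, adjusted p = 0.229).

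Rprml (chr11:103649570-103650579, plus strand), a relative of the cell cycle inhibitor reprimo, was 0.954, 1.500 and 1.34 FPKM in WT and 4.17, 3.18 and 3.88 FPKM in KO muscle. The KO libraries were close to each other and above each WT library, and the rise was 1.07 ± 0.14 (adjusted p = 0.0279). Vipr2 (chr12:116077726-116146261, plus strand), a receptor for vasoactive intestinal peptide and PACAP that signals through cyclic AMP, was 6.83, 5.24 and 4.96 FPKM in WT and 2.68, 2.99 and 1.99 FPKM in KO muscle. It fell by 0.91 ± 0.13 (adjusted p = 0.0294), without overlap between the genotypes. The antisense gene Gm20658 is annotated across Vipr2. KO replicate 2, poor in lymphocyte RNA and within the WT range of the adipocyte sum, stood with the other KO libraries for all 3 genes. Without the 3 libraries rich in lymphocytes the log2 fold changes were 3.43 for Serpina3h, 0.97 for Rprml and -0.78 for Vipr2. KO replicate 2 is the only KO library on chow in that fit, so its p-values are not given. The log2 fold changes with the adipocyte covariate were 3.03, 0.83 and -0.75 in that order, and none of the 3 passed (adjusted p = 0.822, adjusted p = 0.83 and adjusted p = 0.932). With each library left out in turn, Serpina3h, Rprml and Vipr2 each passed the adjusted threshold in 2 of 6 fits, while the 4 genes of the locus passed in 6 of 6. Without WT replicate 1 or without KO replicate 3, 4 genes passed in all, and without WT replicate 3, 14 did.

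On high fat diet, in other mice, Serpina3h was 0.275, 0.842 and 0.159 FPKM in WT and 15.2, 16.5 and 9.43 FPKM in KO muscle, and it rose by 3.36 there too (adjusted p = 0.00388). Rprml was 1.07, 0.836 and 1.24 in WT and 2.38, 1.66 and 1.53 in KO muscle on that diet, a difference of 0.47 (adjusted p = 0.194). Vipr2 was 3.17, 2.82 and 3.39 in WT and 3.34, 3.35 and 3.16 in KO muscle, a difference of 0.06 (adjusted p = 0.837). The difference between diets had an adjusted p = 0.408 for Vipr2 in the interaction test, and no gene had a lower one. No gene passed the adjusted threshold for the interaction (0%), and 746 (6.25%) had an unadjusted p under 0.05.

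**Figure D2:**
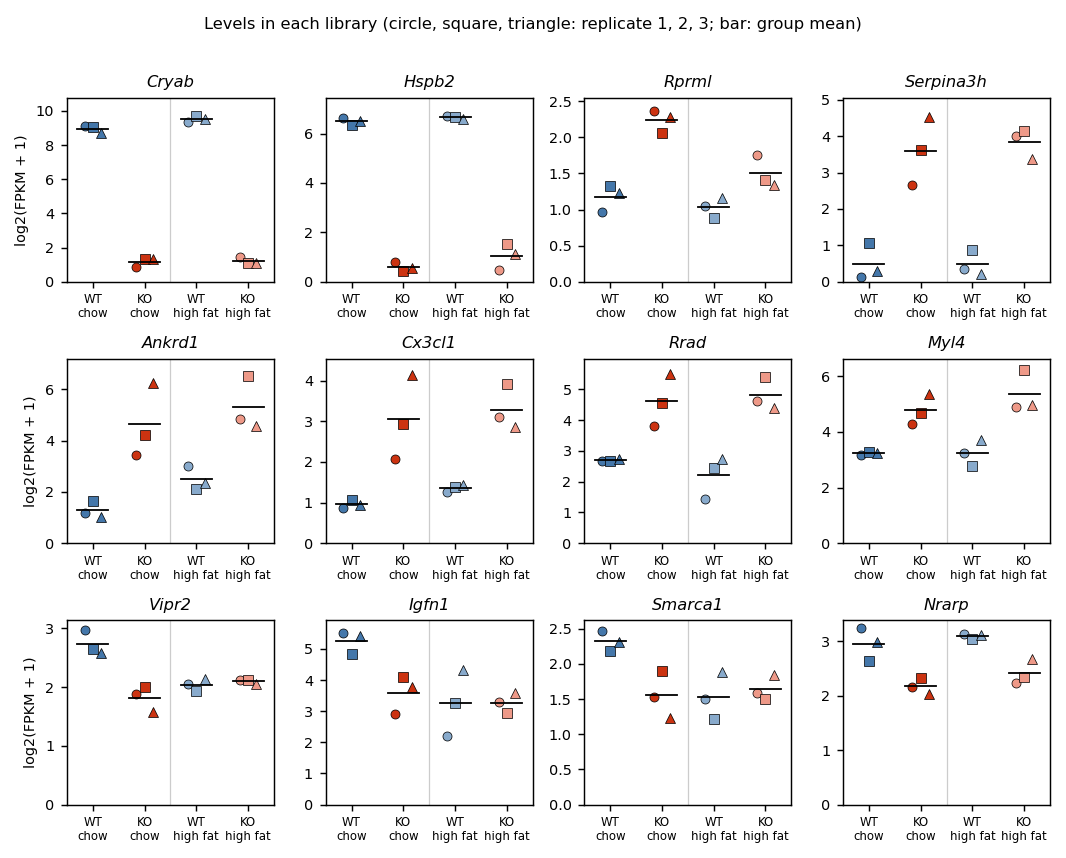
Level of 12 genes, as log2(FPKM + 1), in each library of the 4 groups, with circles, squares and triangles for replicates 1, 2 and 3 and a bar at the group mean. Serpina3h, Ankrd1, Cx3cl1, Rrad and Myl4 stand apart between genotypes on both diets, whereas for Vipr2, Igfn1 and Smarca1 the 2 genotypes overlap on high fat diet.

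Short of the adjusted threshold, many more genes differed by smaller margins, and their number turned on single libraries. At an unadjusted p under 0.05 there were 1990 genes (16.7% of those tested), 804 higher (6.73%) and 1186 lower (9.93%) in KO muscle. At p under 0.01 there were 422 (3.53%), 202 higher (1.69%) and 220 lower (1.84%). In 2196 genes (18.4%) no KO library overlapped a WT library. The median log2 fold change of all genes was -0.03 and the median SE 0.12. Without WT replicate 1 the count at p under 0.05 was 615, without WT replicate 2 it was 3113, without KO replicate 1 it was 921, without KO replicate 2 it was 3563 and without KO replicate 3 it was 866. With the summed lymphocyte markers as a covariate, 526 genes were higher (4.4%) and 582 lower (4.87%). With the summed adipocyte markers, 141 were higher (1.18%) and 150 lower (1.26%). The counts given last have KO replicate 2 as the only KO library on chow, so they are not comparable with the others. Without the 3 libraries rich in lymphocytes, 174 were higher (1.46%) and 143 lower (1.2%).

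The 10 genes named for a difference on both diets, Serpina3h among them, were each higher in every KO library than in every WT library on either diet. Ankrd1, Cx3cl1, Rrad, Myl4 and Uchl1 are described first, and Gys2, Cilp, Arxes1 and Arxes2 further on. Both diets were used to choose them, so their values on high fat diet are a description. Ankrd1 (chr19:36111961-36120099, minus strand) encodes a titin-binding ankyrin repeat protein that muscle makes when it is stretched, injured or denervated. It was 1.25, 2.15 and 1.04 FPKM in WT and 9.95, 17.5 and 76.3 FPKM in KO muscle on chow. KO replicate 3 was the highest, yet KO replicate 1, the lowest of the KO libraries, was still well above the highest WT library. The log2 fold change was 3.36 ± 0.66 (SE; adjusted p = 0.193). The high fat values were 7.13, 3.33 and 4.14 in WT and 27.5, 91.3 and 22.7 in KO muscle, a difference of 2.81 (adjusted p = 0.143).

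Cx3cl1 (chr8:94772009-94782427, plus strand), the membrane-bound chemokine fractalkine, was 0.823, 1.10 and 0.921 FPKM in WT and 3.22, 6.61 and 16.6 FPKM in KO muscle, in the same order of libraries as Ankrd1. Its log2 fold change was 2.09 ± 0.42 (SE; adjusted p = 0.195), and it was 1.94 on high fat diet (adjusted p = 0.0915). Rrad (chr8:104628070-104631327, minus strand), a small GTPase that restrains voltage-gated calcium channels, was 5.36, 5.36 and 5.69 in WT and 12.9, 22.4 and 44.2 in KO muscle. The 3 WT values lay close together while the KO values spread upward, with a log2 fold change of 1.92 ± 0.42 (SE; adjusted p = 0.256) on chow and 2.59 on high fat diet (adjusted p = 0.117). Myl4 (chr11:104550663-104595753, plus strand), the myosin light chain of atrial and embryonic muscle, was 8.06, 8.74 and 8.39 in WT and 18.4, 24.7 and 40.7 in KO muscle. Its difference was 1.55 ± 0.36 (SE; adjusted p = 0.263) on chow and 2.11 on high fat diet (adjusted p = 0.143). Uchl1 (chr5:66676091-66687234, plus strand), a deubiquitinating enzyme abundant in neurons, was 2.75, 4.81 and 3.65 in WT and 6.99, 12.1 and 32.7 in KO muscle, with 1.71 ± 0.49 (SE; adjusted p = 0.268) on chow and 1.54 on high fat diet (adjusted p = 0.152). Uchl1 is itself among the summed nerve markers, but unlike their sum it was not high in WT replicate 3. The part of nerve content in its difference was not tested. Antisense genes are annotated across Rrad, Myl4 and Uchl1.

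These 5 genes were higher in KO replicate 2, which had little lymphocyte RNA and an adipocyte sum within the WT range, than in KO replicate 1. Without the 3 libraries rich in lymphocytes the log2 fold changes were 3.11 for Ankrd1, 2.02 for Cx3cl1, 1.85 for Rrad, 1.48 for Myl4 and 1.65 for Uchl1. With the adipocyte covariate they were 3.34, 2.03, 1.65, 1.34 and 1.43 in that order, of which Uchl1 alone no longer had an unadjusted p under 0.05. Il20rb, a subunit of receptors for cytokines of the interleukin 20 family, had the lowest p of the listed genes that did not pass the adjusted threshold, at 0.858, 0.855 and 1.14 FPKM in WT and 2.82, 3.95 and 5.601 FPKM in KO muscle (1.36 ± 0.22 SE, adjusted p = 0.081). It differed by 1.53 on high fat diet (adjusted p = 0.0915).

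Upstream sequences are shown for Ankrd1, Cx3cl1 and Myl4, as 3 of the 10 genes that were higher in each KO library on both diets. Each is the 250 bases before the RefSeq start, on GRCm38.p6 and on the strand of the gene: chr19:36119845-36120094 on the minus strand, chr8:94771930-94772179 on the plus strand and chr11:104550413-104550662 on the plus strand. The RefSeq start can differ from the GENCODE one, so the Ankrd1 stretch and part of that of Cx3cl1 lie inside the gene as GENCODE places it. Of the 10 genes named for a difference on both diets, 7 were in the RefSeq table used. Capitals mark matches on either strand to the E-box CANNTG, bound by myogenic factors, to the M-CAT element CATTCC, bound by TEAD factors, and to a pair of heat shock units, GAANNTTC or TTCNNGAA.
Ankrd1: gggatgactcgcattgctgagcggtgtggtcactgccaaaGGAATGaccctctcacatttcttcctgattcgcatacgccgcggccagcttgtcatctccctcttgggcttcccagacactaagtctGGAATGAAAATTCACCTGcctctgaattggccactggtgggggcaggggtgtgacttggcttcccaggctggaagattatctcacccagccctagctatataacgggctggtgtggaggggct
Cx3cl1: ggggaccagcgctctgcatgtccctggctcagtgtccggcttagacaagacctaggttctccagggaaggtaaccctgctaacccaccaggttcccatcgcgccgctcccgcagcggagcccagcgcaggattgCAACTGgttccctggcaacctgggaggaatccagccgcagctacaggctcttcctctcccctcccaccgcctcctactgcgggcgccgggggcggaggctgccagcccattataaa
Myl4: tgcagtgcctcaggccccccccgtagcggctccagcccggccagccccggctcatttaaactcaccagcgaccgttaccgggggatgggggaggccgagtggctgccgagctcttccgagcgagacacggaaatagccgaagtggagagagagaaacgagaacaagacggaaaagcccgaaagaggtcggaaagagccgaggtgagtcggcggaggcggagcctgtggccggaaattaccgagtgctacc

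The Ankrd1 sequence holds 1 E-box that starts 111 bases before the RefSeq start and 1 heat shock pair at 118 bases. It also holds 2 M-CAT elements at 210 and 123 bases, both in reverse orientation as GGAATG. The nearer M-CAT element, the heat shock pair and the E-box adjoin or overlap and so form 1 run of capitals. Cx3cl1 holds 1 E-box at 116 bases and Myl4 holds none of the 3 motifs. Of 32851 promoters of this length, 66.22% hold an E-box, 12.64% an M-CAT element and 12.84% a heat shock pair. The 3 genes thus share no motif of this set, and a match is a stretch of letters, not a measured binding site.

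Several of the other large differences had an order of libraries close to that of the adipocyte sum. That sum itself differed between genotypes by 1.46 on the log2 scale, so the covariate can also remove genotype difference. The part of adipocyte content in these differences was not tested and cannot be told apart from genotype. Arxes2 (chrX:135993824-135995355, plus strand), an adipocyte gene with the near-identical neighbour Arxes1 and so of uncertain value, was 0.695, 12.1 and 4.63 FPKM in WT and 34.5, 13.4 and 33.9 FPKM in KO muscle. KO replicate 2 and WT replicate 2 were nearly alike, as they were in the adipocyte sum. The log2 fold change was 2.38 ± 0.77 (SE, adjusted p = 0.277), and 0.23 with the adipocyte covariate. Arxes1 (chrX:136033367-136034946, plus strand) was 0.356, 6.26 and 2.57 in WT and 14.3, 6.61 and 14.2 in KO muscle, with 1.88 ± 0.60 (SE, adjusted p = 0.277), and 0.15 with the covariate.

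Gys2 (chr6:142422613-142473109, minus strand), the glycogen synthase of liver and fat, was 0.270, 4.06 and 2.44 FPKM in WT and 10.8, 4.59 and 7.31 FPKM in KO muscle (1.54 ± 0.45 SE, adjusted p = 0.27), and its difference was 0.34 with the covariate. Slc1a3 (chr15:8634124-8710764, minus strand), a glutamate transporter, was 0.643, 4.48 and 2.92 in WT and 12.5, 5.88 and 10.4 in KO muscle (1.64 ± 0.46 SE, adjusted p = 0.263), and 0.34 with the covariate. With the covariate none of these 4 genes had an unadjusted p under 0.05. In each of them KO replicates 1 and 3 were the highest and WT replicate 1 the lowest, as in the adipocyte sum. Rasd1 (chr11:59963181-59964944, minus strand), a Ras-like GTPase induced by glucocorticoids, and Nat8l (chr5:33995984-34005916, plus strand), which makes N-acetylaspartate, still had an unadjusted p under 0.05 with the covariate. Rasd1 was 1.06, 3.52 and 1.95 in WT and 11.9, 6.23 and 9.14 in KO muscle (1.70 ± 0.37 SE, adjusted p = 0.252), and 0.71 with the covariate. Nat8l was 0.304, 2.82 and 0.903 in WT and 6.58, 3.21 and 7.13 in KO muscle (1.59 ± 0.35 SE, adjusted p = 0.256), and 0.69 with the covariate. Cilp (chr9:65265180-65280605, plus strand), a matrix protein of cartilage and muscle, was 10.1, 11.00 and 26.0 in WT and 33.2, 44.95 and 45.8 in KO muscle (1.45 ± 0.39 SE, adjusted p = 0.263), and the difference was 2.27 on high fat diet (adjusted p = 0.141). It was 1.00 on chow with the covariate, without an unadjusted p under 0.05, and 1.41 without the 3 libraries rich in lymphocytes.

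Among the named genes lower in KO muscle outside the locus, Igfn1 (chr1:135953578-136006342, minus strand), an immunoglobulin and fibronectin domain protein of the Z-disc, differed most. It was 44.9, 27.4 and 41.8 FPKM in WT and 6.45, 16.3 and 12.8 FPKM in KO muscle, with each KO library under each WT library (-1.66 ± 0.47 SE, adjusted p = 0.263). Cacna2d4 (chr6:119236526-119352407, plus strand), an auxiliary subunit of calcium channels, was 3.37, 2.60 and 1.65 in WT and 0.895, 1.49 and 0.635 in KO muscle (-0.81 ± 0.21 SE, adjusted p = 0.263). Smarca1 (chrX:47809368-47892974, minus strand), a chromatin remodelling ATPase, was 4.53, 3.54 and 3.95 in WT and 1.89, 2.73 and 1.34 in KO muscle (-0.77 ± 0.19 SE, adjusted p = 0.263). Cited4 (chr4:120666572-120667820, plus strand), a transcriptional coactivator, was 17.4, 12.1 and 10.7 in WT and 7.15, 7.33 and 7.597 in KO muscle (-0.76 ± 0.17 SE, adjusted p = 0.256), with the 3 KO libraries close together.

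These 4 differences also moved with the libraries used. Without the 3 libraries rich in lymphocytes they were -1.36, -0.45, -0.49 and -0.82 in the order above. Fitted with the adipocyte covariate, they were -1.87, -0.48, -0.73 and -0.48, and Cacna2d4 alone no longer had an unadjusted p under 0.05. The differences of these 4 genes on high fat diet were 0.01 for Igfn1, 0.001 for Cacna2d4, 0.11 for Smarca1 and 0.24 for Cited4, none with an unadjusted p under 0.05. The sign was thus not negative for any of them there. In the interaction test all 4 had an unadjusted p under 0.05 and none passed the adjustment. In WT muscle on that diet Igfn1 was 3.61, 8.57 and 19.2 FPKM, a range that held the KO levels on chow.

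A pair of other protein-coding genes was lower on both diets. Nrarp (chr2:25180758-25183339, plus strand), a target and inhibitor of Notch, was 8.44, 5.21 and 6.88 FPKM in WT and 3.47, 4.03 and 3.10 FPKM in KO muscle on chow, with no overlap (-0.77 ± 0.15 SE, adjusted p = 0.193). It was 7.83, 7.21 and 7.70 and 3.71, 4.09 and 5.37 on high fat diet, again without overlap, a difference of -0.68 (adjusted p = 0.143). Without the 3 libraries rich in lymphocytes its chow difference was -0.78. With the adipocyte covariate it was -0.55, which did not pass the adjusted threshold. Pde4a (chr9:21165714-21213248, plus strand), a phosphodiesterase that degrades cyclic AMP, was 26.7, 20.4 and 23.1 in WT and 11.9, 15.8 and 11.7 in KO muscle on chow (-0.79 ± 0.19 SE, adjusted p = 0.263), and its difference was -0.58 on high fat diet (adjusted p = 0.238). Of the noncoding genes, 2310065F04Rik (chr11:67112461-67120080, minus strand), an intergenic transcript, was 40.6, 33.9 and 53.2 in WT and 25.3, 31.7 and 13.5 in KO muscle (-0.89 ± 0.26 SE, adjusted p = 0.27) and lower on high fat diet too (-0.59, adjusted p = 0.143). 1110035M17Rik (chr11:95700106-95712754, minus strand), antisense to Zfp652, was 4.71, 4.42 and 4.80 in WT and 2.53, 2.76 and 2.02 in KO muscle (-0.72 ± 0.21 SE, adjusted p = 0.27). The chow differences with the adipocyte covariate were -0.49 for Pde4a, -0.62 for 2310065F04Rik and -0.44 for 1110035M17Rik, none with an unadjusted p under 0.05. Without the 3 libraries rich in lymphocytes they were -0.62, -0.54 and -0.62. Antisense genes are also annotated across Cacna2d4 and Nrarp.

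Genotype differences on chow use none of the high fat mice, but the chow p-values take their spread from mice on both diets. The overlap below is therefore not one of independent tests. The high fat mice give the same genotype contrast in other animals. There, 8 genes passed the adjusted threshold (0.067%), 4 higher and 4 lower (0.0335% each), and 1909 had an unadjusted p under 0.05 (16%), 1258 higher (10.5%) and 651 lower (5.45%) in KO muscle. Outside the 10 Mb around Cryab, 508 genes had p under 0.05 in the same direction on both diets, which is 25.9% of the 1959 chow genes and 27.0% of the 1882 high fat genes. Of 791 genes higher on chow, 376 (47.5%) were higher on high fat diet, where 1242 were higher in all, and of 1168 lower on chow, 132 (11.3%) were lower, where 640 were lower in all. In 33 genes the directions were opposite. At p under 0.01 on chow and under 0.05 on high fat diet, 109 genes were higher and 42 lower on both. Adipocyte sums were also higher in KO muscle on high fat diet (from 1833 to 2311 against 591 to 1761 FPKM), and their part in the genes that recurred was not tested.

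**Figure D3:**
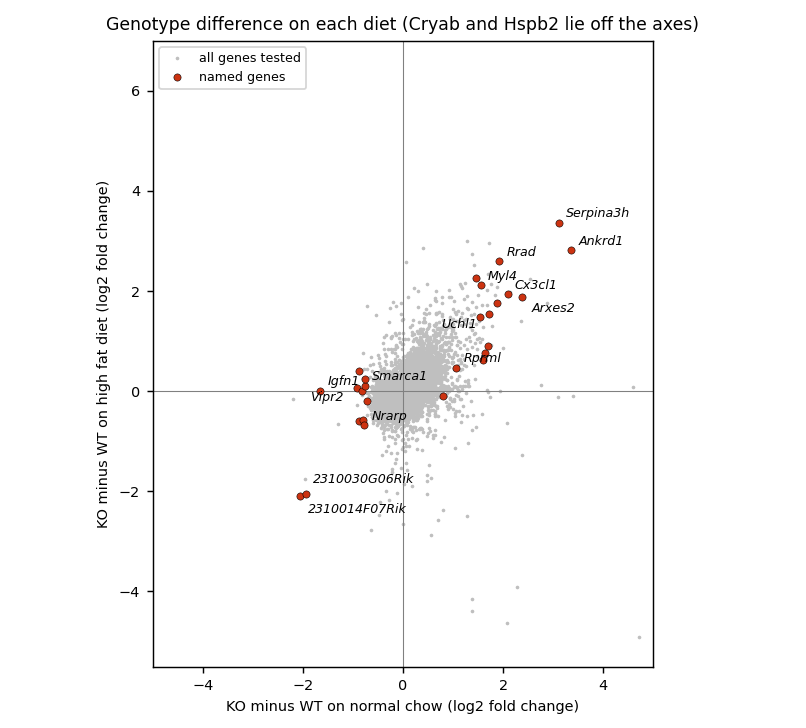
Log2 fold change, KO minus WT, on normal chow (x axis) against that on high fat diet (y axis), with grey points for the genes tested and red points for named genes. Ankrd1, Serpina3h, Cx3cl1 and Rrad lie far out in the upper right, and Vipr2, Igfn1 and Smarca1 lie left of 0 on the x axis and near 0 or above it on the y axis. Cryab and Hspb2 lie off the axes.

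Genes were next grouped by function. Each group is described by its members at an unadjusted p under 0.05, beside shares of 6.73% higher and 9.93% lower over all genes. With the adipocyte covariate the shares over all genes were 1.18% higher and 1.26% lower, so counts from that fit are set against these. With the lymphocyte covariate they were 4.4% and 4.87%. On high fat diet the shares over all genes were 10.5% higher and 5.45% lower, so list counts on that diet are set against these. Leaving out a library also moved the counts over all 11945 genes, against which such list counts are set. There were 304 higher and 311 lower without WT replicate 1, and 1397 and 1716 without WT replicate 2. The counts were 612 and 807 without WT replicate 3, and 431 and 490 without KO replicate 1. They were 1593 and 1970 without KO replicate 2, and 412 and 454 without KO replicate 3. No member beyond those already named passed the adjusted threshold. Counts of 1 or 2 members are given as values only, since most of them changed by over 1.5 times without 1 library or another. Of the 7 small heat shock proteins tested, the family of the missing proteins, Cryab and Hspb2 were the only ones with p under 0.05. Hspb1, a ubiquitous member of the family, was 274, 221 and 188 FPKM in WT and 190.0, 269.9 and 421 FPKM in KO muscle (0.31 ± 0.26 SE, adjusted p = 0.506). Hspb8, which works with Bag3 in chaperone-assisted autophagy, was 372, 281 and 315 in WT and 249.8, 369 and 468 in KO muscle (0.13 ± 0.22 SE, adjusted p = 0.747). KO replicate 3 was the highest library for both, KO replicate 1 was among the lowest, and the groups overlapped. Hspb6 was 848, 765 and 496 in WT and 471, 564 and 535 in KO muscle (-0.39 ± 0.22 SE, adjusted p = 0.355), Hspb7 differed by 0.40 (adjusted p = 0.491) and Hspb3 by -0.23 (adjusted p = 0.485).

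Of 43 genes of the HSP70, HSP90 and HSP40 families and their partners, 1 was higher (2.33%) and 4 were lower (9.3%), neither above the share of all genes. The lower count was 1 without WT replicate 1, 7 without WT replicate 2, 1 without KO replicate 1, 9 without KO replicate 2 and 2 without KO replicate 3. Bag2, a co-chaperone that regulates HSP70, was 13.9, 11.2 and 12.2 FPKM in WT and 8.24, 10.2 and 8.56 FPKM in KO muscle, without overlap (-0.43 ± 0.13 SE, adjusted p = 0.27). Hsf1, the transcription factor of the heat shock response, was 27.4, 22.9 and 23.4 in WT and 19.2, 23.1 and 19.1 in KO muscle (-0.25 ± 0.09 SE, adjusted p = 0.281), with KO replicate 2 inside the WT range. Unc45b, the myosin chaperone, differed by -0.34 (adjusted p = 0.277) and Fkbp5, a glucocorticoid-induced partner of HSP90, by 0.55 (adjusted p = 0.281). Bag3 was 73.9, 61.4 and 62.4 in WT and 49.6, 67.6 and 72.9 in KO muscle (-0.07 ± 0.14 SE, adjusted p = 0.791). With the adipocyte covariate 0 members were higher and 0 lower.

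Among genes of the Z-disc, where αB-crystallin resides, and of intermediate filaments, Ankrd1, given above, had the lowest p on chow. Of 32 tested, 5 were higher (15.6%) and 3 lower (9.38%). The higher count was 3 without WT replicate 2, 3 without WT replicate 3, 2 without KO replicate 2 and 1 without KO replicate 3. The lower count was 0 without WT replicate 1, 7 without WT replicate 2, 1 without WT replicate 3, 1 without KO replicate 1, 13 without KO replicate 2 and 0 without KO replicate 3. On high fat diet 10 were higher and 2 lower. Xirp1, an actin-binding protein of damaged and remodelling fibres, was 28.9, 24.9 and 26.3 FPKM in WT and 26.4, 49.2 and 70.6 FPKM in KO muscle (0.74 ± 0.28 SE, adjusted p = 0.281). Nes, the intermediate filament nestin of immature and regenerating fibres, was 6.34, 5.81 and 6.06 in WT and 6.84, 10.5 and 17.0 in KO muscle (0.73 ± 0.27 SE, adjusted p = 0.281). KO replicates 2 and 3 were above WT for both, while KO replicate 1 was near the WT level. Des, the desmin filament that αB-crystallin binds, was 2823, 2040.5 and 2162 in WT and 1738, 2563 and 2207 in KO muscle (-0.11 ± 0.18 SE, adjusted p = 0.728), and Flnc, filamin C, was 85.1, 78.0 and 75.5 and 58.6, 101 and 114 (0.14 ± 0.20 SE, adjusted p = 0.69). Pdlim7, a scaffold of the Z-disc, was 410.4, 301 and 360.1 in WT and 268, 319 and 225 in KO muscle (-0.40 ± 0.14 SE, adjusted p = 0.277). With the adipocyte covariate 3 members were higher and 0 lower.

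Of 20 genes of the neuromuscular junction, the synapse of nerve and fibre, 5 were higher (25%) and 1 lower (5%), and on high fat diet 6 were higher and 0 lower. With single libraries left out the number higher was 2 without WT replicate 1, 2 without WT replicate 2 and 3 without WT replicate 3. It was 3 without KO replicate 2 and 1 without KO replicate 3. The median log2 fold change of the list was 0.07 with all libraries and 0.21 without the 3 libraries rich in lymphocytes. Colq, the collagen tail that anchors acetylcholinesterase at the synapse, was 4.84, 5.28 and 4.397 FPKM in WT and 7.02, 10.7 and 10.96 FPKM in KO muscle. Every KO library was above every WT library, with a difference of 0.84 ± 0.16 (SE; adjusted p = 0.193). The difference was 1.06 without the 3 libraries rich in lymphocytes. Chrna1, the alpha subunit of the acetylcholine receptor, was 6.48, 5.10 and 5.41 in WT and 6.86, 8.71 and 15.5 in KO muscle (0.70 ± 0.27 SE, adjusted p = 0.281). Chrnb1 was 15.9, 14.6 and 18.2 and 17.8, 23.2 and 27.3 (0.45 ± 0.19 SE, adjusted p = 0.284) and Chrne, the adult epsilon subunit, 12.2, 10.2 and 12.5 and 14.4, 19.4 and 16.3 (0.48 ± 0.21 SE, adjusted p = 0.294). KO replicate 1 was the lowest KO library for all 3 subunits and lay within or just above the WT range. Rapsn, which clusters the receptors, was the lower member, at 23.0, 16.2 and 21.5 in WT and 14.1, 18.9 and 13.4 in KO muscle (-0.37 ± 0.15 SE, adjusted p = 0.281), with KO replicate 2 within the WT range. With the adipocyte covariate the counts were 5 higher and 1 lower. Schwann cell markers, given above, were high in WT replicate 3, where Colq was at its lowest. The part of nerve content in the junction differences was not tested.

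In the atrophy list, 7 of 20 genes were higher (35%) and 1 lower (5%), but its best-known members were not among them. Trim63, the ubiquitin ligase MuRF1, was 120.4, 86.6 and 122.9 FPKM in WT and 86.9, 143 and 105 FPKM in KO muscle (0.01 ± 0.18 SE, adjusted p = 0.979). Fbxo32, the ligase atrogin-1, was 54.6, 36.3 and 61.3 in WT and 32.4, 56.4 and 49.5 in KO muscle (-0.14 ± 0.23 SE, adjusted p = 0.74). The higher members were led by Fbxo21, another F-box ubiquitin ligase subunit, at 5.16, 6.83 and 5.56 and 9.13, 8.64 and 9.22 (0.55 ± 0.11 SE, adjusted p = 0.193). Cdkn1a, the cell cycle inhibitor p21, was 7.02, 8.43 and 12.3 in WT and 17.4, 24.5 and 39.2 in KO muscle (1.41 ± 0.34 SE, adjusted p = 0.263), and its difference was 1.55 on high fat diet (adjusted p = 0.143). Neither of these overlapped between genotypes on chow. Sesn1, a stress-induced inhibitor of mTOR signalling, was 9.85, 11.2 and 12.2 in WT and 14.3, 14.0 and 14.3 in KO muscle (0.33 ± 0.11 SE, adjusted p = 0.277). Mstn, the growth inhibitor myostatin, was lower at 57.0, 40.4 and 45.2 against 23.2, 37.6 and 25.1 (-0.73 ± 0.26 SE, adjusted p = 0.277), with a difference of 0.45 on high fat diet (adjusted p = 0.43). The number of higher members was 3 without WT replicate 1 and 3 without KO replicate 3, and 4 with the adipocyte covariate.

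Of 15 genes of myogenesis and regeneration, 3 were higher and 1 lower. Myh3, the embryonic myosin heavy chain, was 0.763, 0.980 and 0.235 FPKM in WT and 1.74, 2.86 and 10.1 FPKM in KO muscle (1.59 ± 0.46 SE, adjusted p = 0.27), highest in KO replicate 3. Ncam1, an adhesion molecule of immature and denervated fibres, was 2.63, 2.82 and 2.35 in WT and 2.94, 4.57 and 11.1 in KO muscle (0.84 ± 0.34 SE, adjusted p = 0.284), and its gene lies within the 10 Mb around Cryab. Tmem8c, the fusion protein myomaker, was 0.898, 2.22 and 0.176 and 1.26, 2.75 and 7.41 (1.10 ± 0.50 SE, adjusted p = 0.3). All 3 were higher on high fat diet as well, by 1.28, 0.80 and 1.60 (adjusted p = 0.152, adjusted p = 0.187 and adjusted p = 0.143). Myod1, a master regulator of the lineage, was the lower member at 36.5, 27.1 and 26.2 against 18.1, 28.5 and 21.8 (-0.39 ± 0.17 SE, adjusted p = 0.29). The higher count was 1 without WT replicate 1, 1 without WT replicate 3 and 1 without KO replicate 3, and 1 with the adipocyte covariate. In calcium handling, 2 of 27 genes were higher and 2 lower, and the lower count was 0 without WT replicate 1, 14 without WT replicate 2, 0 without WT replicate 3, 0 without KO replicate 1, 18 without KO replicate 2 and 0 without KO replicate 3. Sln, the sarcolipin that uncouples the calcium pump, was 18.4, 11.2 and 4.56 in WT and 32.4, 67.3 and 110.2 in KO muscle (2.53 ± 0.78 SE, adjusted p = 0.276), and 2.25 on high fat diet (adjusted p = 0.238). No library overlapped between genotypes on chow, and the gene lies within the 10 Mb around Cryab. Casq2, the slow and cardiac calsequestrin, was 9.80, 8.55 and 8.43 and 9.08, 15.0 and 27.9 (0.75 ± 0.32 SE, adjusted p = 0.284), the 1 of 12 slow fibre genes with p under 0.05.

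The enzymes of glycolysis and glycogen formed the list with the largest lower share. Of 34 tested, 18 were lower (52.9% against 9.93% of all genes) and 2 higher, with a median log2 fold change of -0.42. Pgm2, a phosphoglucomutase, was 895, 655 and 706 FPKM in WT and 464, 597 and 418 FPKM in KO muscle (-0.61 ± 0.16 SE, adjusted p = 0.263). Pgk1, phosphoglycerate kinase, was 957, 712 and 741 in WT and 524, 664 and 536 in KO muscle (-0.48 ± 0.14 SE, adjusted p = 0.27). For both, each KO library was under each WT library. Pkm2, the pyruvate kinase symbol of the files, was 2749.6, 2027 and 2284 and 1535, 2109.7 and 1329 (-0.52 ± 0.18 SE, adjusted p = 0.277), and Pfkm, the muscle phosphofructokinase, 2341, 1626 and 1849 and 1248, 1638 and 1037 (-0.58 ± 0.21 SE, adjusted p = 0.28). Here KO replicate 2 was within the WT range, and Pkm2 lies within the 10 Mb around Cryab. Eno1, the enolase of non-muscle cells, was a higher member at 66.4, 82.0 and 71.0 against 92.4, 82.4 and 101 (0.32 ± 0.11 SE, adjusted p = 0.277).

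The glycolytic count turned on KO replicates 1 and 3 and on WT replicates 1 and 3. In those KO libraries 26 and 23 of 34 members were under all 3 WT libraries, against 5 in KO replicate 2. Over all 11945 genes those numbers were 4860, 4717 and 2620. The lower count was 2 without WT replicate 1, 7 without WT replicate 3, 4 without KO replicate 1 and 3 without KO replicate 3. With the lymphocyte covariate 5 members were lower, and with the adipocyte covariate 0 were, against 4.87% and 1.26% of all genes. The median was -0.16 without the 3 libraries rich in lymphocytes, against -0.42 with all libraries. Of the same members, 1 was lower and 4 were higher on high fat diet, with a median of 0.02. All 12 tested fast fibre genes had negative log2 fold changes, with a median of -0.33 and 2 at p under 0.05. In KO replicates 1 and 3, 11 and 10 of them were under all 3 WT libraries, against 0 in KO replicate 2. Myl1, the fast myosin light chain, was 15315, 10846 and 12907 FPKM in WT and 8839.7, 11470.3 and 7517 FPKM in KO muscle (-0.50 ± 0.18 SE, adjusted p = 0.279), with KO replicate 2 again within the WT range. The fast count was 0 without WT replicate 1, 9 without WT replicate 2, 1 without WT replicate 3, 1 without KO replicate 1, 10 without KO replicate 2 and 0 without KO replicate 3, and 0 with the adipocyte covariate. Muscle, fat and lymphoid markers moved with these differences as given above.

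Of 84 subunits of oxidative phosphorylation, 8 were lower (9.52%) and 2 higher (2.38%), while 82 had a negative log2 fold change and the median was -0.25. In KO replicates 1 and 3, 81 and 79 of them were under all 3 WT libraries, against 25 in KO replicate 2. Sdhd, a subunit of succinate dehydrogenase, was 336, 284 and 296 FPKM in WT and 198, 227 and 225 FPKM in KO muscle, without overlap (-0.49 ± 0.15 SE, adjusted p = 0.276). Its gene lies within the 10 Mb around Cryab, between both neighbours that fell with Cryab. Atp5j, a subunit of ATP synthase, was 861, 677 and 679 and 518, 621 and 509 (-0.42 ± 0.15 SE, adjusted p = 0.277). The 2 higher members were non-muscle forms of cytochrome oxidase subunits. Cox6a1 was 79.0, 147 and 91.3 in WT and 217, 122 and 202 in KO muscle (0.77 ± 0.25 SE, adjusted p = 0.277) and Cox8a 91.8, 142 and 99.97 and 201, 121 and 178 (0.57 ± 0.20 SE, adjusted p = 0.277), with WT replicate 2 above KO replicate 2 for both. The lower count was 1 without WT replicate 1, 5 without WT replicate 3, 2 without KO replicate 1, 28 without KO replicate 2 and 1 without KO replicate 3. On high fat diet 32 were lower and 0 higher, with a median of -0.35. With the adipocyte covariate 0 were lower on chow. Of 74 mitochondrial ribosomal proteins 10 were lower (13.5%) and 0 higher, with a median of -0.17. Mrpl36 was 49.8, 42.4 and 43.8 in WT and 32.6, 39.5 and 34.4 in KO muscle (-0.35 ± 0.10 SE, adjusted p = 0.263). This count was 2 without WT replicate 1, 16 without WT replicate 2, 2 without KO replicate 1, 19 without KO replicate 2 and 3 without KO replicate 3, and 0 with the adipocyte covariate. Of 80 cytosolic ribosomal proteins 1 was higher and 1 lower, with a median of 0.01 and no more than 2 in either direction without any library.

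**Figure D4:**
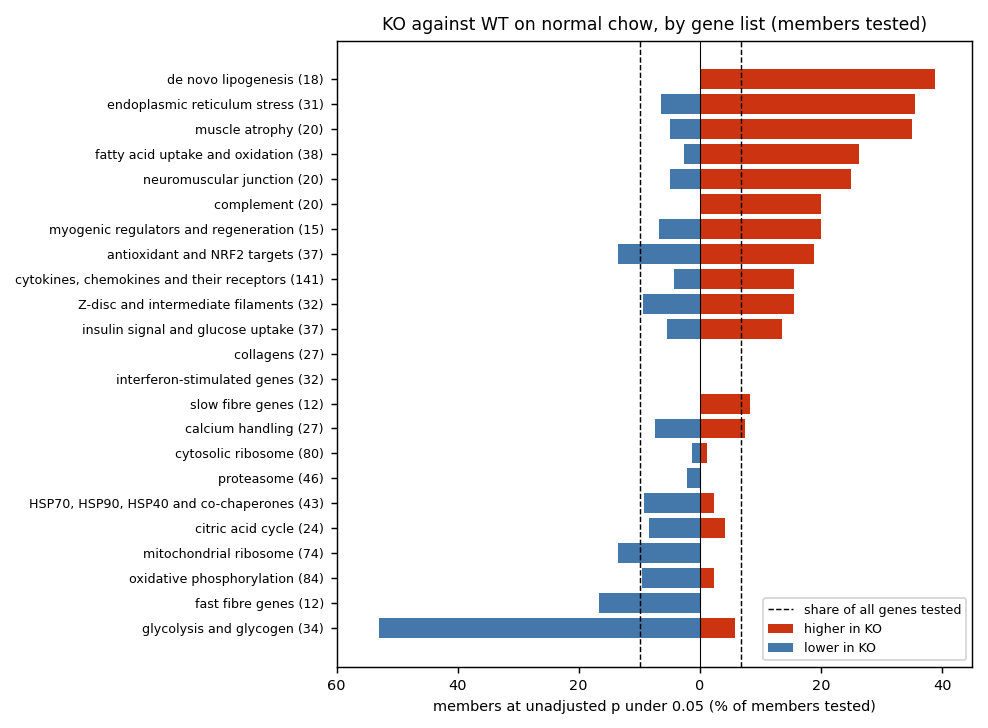
Share of the tested members of each gene list with an unadjusted p under 0.05 (% of members), red to the right for higher and blue to the left for lower in KO muscle on normal chow, with the number tested after each name. Dashed lines mark the shares of all genes, 6.73% higher and 9.93% lower. Glycolysis reaches 52.9% lower and de novo lipogenesis 38.9% higher.

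Of 38 genes of fatty acid uptake and oxidation, 10 were higher (26.3%) and 1 lower. Slc27a1, a fatty acid transport protein, was 25.9, 30.8 and 24.4 FPKM in WT and 57.0, 40.8 and 75.9 FPKM in KO muscle. Each KO library was above each WT library, including KO replicate 2 (1.03 ± 0.19 SE, adjusted p = 0.193). Pdk4, the kinase that turns off pyruvate dehydrogenase during fasting, was 111, 106 and 96.5 in WT and 136, 251 and 348 in KO muscle (1.12 ± 0.33 SE, adjusted p = 0.27), again without overlap. Cd36, the fatty acid translocase of muscle and fat, was 130.1, 179 and 157 and 265, 189 and 260.5 (0.61 ± 0.16 SE, adjusted p = 0.263). Acsl1, which activates long-chain fatty acids, was 75.6, 94.4 and 71.4 and 113, 94.7 and 157 (0.57 ± 0.18 SE, adjusted p = 0.277). KO replicate 2 was the lowest KO library for Cd36 and Acsl1, close to WT replicate 2.

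The genotype difference of this list ran downward on high fat diet, with 3 higher, 21 lower and a median of -0.42 against 0.15 on chow. In the interaction test 21 of 38 members had an unadjusted p under 0.05 with a lower genotype difference on high fat diet, a direction that 322 of all genes (2.7%) shared. No member passed the adjustment, and Slc27a1 and Pdk4 were among the 21. Slc27a1 differed by -0.49 on high fat diet (adjusted p = 0.166), and Pdk4 by -0.40 (adjusted p = 0.538). The chow count of higher members was 5 without WT replicate 1, 5 without KO replicate 1 and 6 without KO replicate 3, 5 with the lymphocyte covariate and 2 with the adipocyte covariate.

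Lipogenic genes had the largest higher share among lists with at least 10 genes tested, 7 of 18 (38.9% against 6.73% of all genes) with 0 lower and a median of 0.77. Dgat1, which makes triglyceride, was 10.2, 15.1 and 12.4 FPKM in WT and 27.4, 17.1 and 27.7 FPKM in KO muscle (0.87 ± 0.20 SE, adjusted p = 0.259). Acaca, acetyl-CoA carboxylase, was 2.45, 7.77 and 6.61 and 15.3, 9.50 and 24.6 (1.42 ± 0.36 SE, adjusted p = 0.263), and Slc25a1, the citrate carrier, 7.03, 22.2 and 21.1 and 47.6, 29.0 and 91.7 (1.68 ± 0.54 SE, adjusted p = 0.277). Fasn, the fatty acid synthase, was 7.91, 49.5 and 41.9 and 98.4, 55.7 and 171 (1.88 ± 0.70 SE, adjusted p = 0.281), and Thrsp, a regulator of lipogenesis, 18.8, 91.6 and 63.2 and 172, 78.5 and 229.9 (1.58 ± 0.53 SE, adjusted p = 0.277). All 5 stood in an order close to that of the adipocyte sum, lowest in WT replicate 1 and highest in KO replicates 1 and 3. With the adipocyte covariate 1 member was higher, and the count was 3 without WT replicate 1 and 3 without KO replicate 3. The median was 0.37 without the 3 libraries rich in lymphocytes. On high fat diet 9 were higher and 0 lower.

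In the insulin pathway 5 of 37 genes were higher (13.5%) and 2 lower (5.41%). Pik3r1, the regulatory subunit of phosphoinositide kinase, was 6.40, 11.3 and 9.42 FPKM in WT and 17.6, 14.1 and 14.2 FPKM in KO muscle, without overlap (0.72 ± 0.17 SE, adjusted p = 0.263). Sh2b2, an adaptor of the insulin receptor, was 2.20, 4.61 and 3.17 and 7.16, 4.49 and 8.90 (0.85 ± 0.27 SE, adjusted p = 0.277). Slc2a4, the insulin-regulated glucose transporter GLUT4, was 317, 266 and 288 in WT and 202, 277 and 198 in KO muscle (-0.38 ± 0.15 SE, adjusted p = 0.281), with KO replicate 2 within the WT range, and it was lower on high fat diet too (-0.37, adjusted p = 0.231). The insulin count of higher genes was 3 without WT replicate 1, and 0 with the adipocyte covariate. That of lower genes was 0 without WT replicate 1, 5 without WT replicate 2, 1 without WT replicate 3, 0 without KO replicate 1, 6 without KO replicate 2 and 0 without KO replicate 3, and 0 with the covariate. Of 24 genes that break down branched-chain amino acids, 2 were lower and 0 higher on chow, with 0 lower without WT replicate 1 or without WT replicate 3, against 13 lower on high fat diet.

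In the endoplasmic reticulum stress list 11 of 31 genes were higher (35.5%) and 2 lower (6.45%), with a median of 0.20. Asns, asparagine synthetase, was 1.45, 4.91 and 3.28 FPKM in WT and 11.1, 5.30 and 8.25 FPKM in KO muscle (1.17 ± 0.30 SE, adjusted p = 0.263). Xbp1, a transcription factor of the unfolded protein response, was 45.1, 45.9 and 48.9 and 63.6, 52.4 and 59.0 (0.31 ± 0.09 SE, adjusted p = 0.263), and Hspa5, the chaperone BiP, 64.0, 64.7 and 67.6 and 74.4, 70.3 and 86.8 (0.23 ± 0.09 SE, adjusted p = 0.281). Trib3, a pseudokinase induced by the stress factors, was 0.643, 1.06 and 1.17 and 1.77, 1.43 and 1.64 (0.43 ± 0.14 SE, adjusted p = 0.277). No library overlapped for these 4, but KO replicate 2 was the lowest KO library in each. Atf4, which induces Asns and Trib3, was lower at 159, 109.5 and 118 against 86.8, 106 and 91.4 (-0.43 ± 0.14 SE, adjusted p = 0.277). The higher count was 4 without WT replicate 1, 17 without KO replicate 2 and 4 without KO replicate 3, and 1 with the adipocyte covariate. The median was 0.11 without the 3 libraries rich in lymphocytes. On high fat diet 5 were higher and 3 lower.

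**Figure D5:**
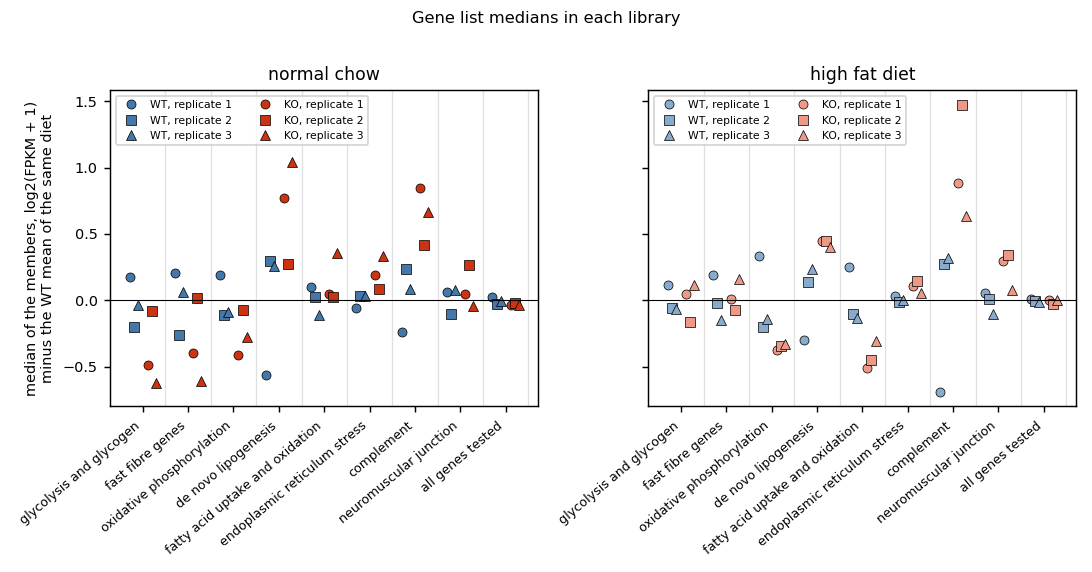
Median over the members of each gene list of log2(FPKM + 1) minus the WT mean of the same diet, in each library, with normal chow on the left and high fat diet on the right. On chow the glycolysis and fast fibre medians of KO replicates 1 and 3 lie under 0 while that of KO replicate 2 lies among the WT libraries, and all genes tested lie within 0.04 of 0.

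Cytokines, chemokines and their receptors were mostly low, and 141 of 255 were tested. Of these 22 were higher (15.6%) and 6 lower (4.26%) on chow, against 42 and 7 on high fat diet. Besides Il20rb and Cx3cl1, Fas, the death receptor, was 2.61, 3.84 and 2.87 FPKM in WT and 4.80, 4.29 and 5.61 FPKM in KO muscle (0.53 ± 0.14 SE, adjusted p = 0.263), and Egfr, the epidermal growth factor receptor, 2.13, 2.91 and 4.03 and 5.86, 4.74 and 4.56 (0.61 ± 0.19 SE, adjusted p = 0.277), neither with overlap. The cytokine count was 7 without WT replicate 1, 57 without WT replicate 2, 11 without WT replicate 3, 9 without KO replicate 1, 58 without KO replicate 2 and 12 without KO replicate 3, and 5 with the adipocyte covariate, while the lower one was 3 without WT replicate 1 and 3 without KO replicate 3, and 0 with the covariate. Of 20 complement genes 4 were higher and 0 lower, with a median of 0.62, and in 16 of them, against 974 of all genes (8.15%), each KO library was above each WT library. C3, the central component, was 29.5, 58.1 and 45.6 in WT and 105, 60.1 and 101 in KO muscle (0.99 ± 0.44 SE, adjusted p = 0.296), and Cfp, properdin, 7.45, 10.1 and 7.87 and 16.2, 11.8 and 15.7 (0.71 ± 0.22 SE, adjusted p = 0.277). The complement count was 1 without WT replicate 1, 7 without WT replicate 2, 1 without KO replicate 1 and 2 without KO replicate 3, and 0 with the adipocyte covariate. On high fat diet 14 were higher and 0 lower, with a median of 1.10. No interferon-stimulated gene of 32 and no collagen of 27 had p under 0.05 on chow, although 29 and 21 had positive log2 fold changes. The interferon count was 8 without WT replicate 2 and 11 without KO replicate 2, and the collagen count was 5 without WT replicate 3 and 1 without KO replicate 1. Of 46 proteasome genes 0 were higher and 1 lower, and the lower count was 10 without WT replicate 2, 2 without WT replicate 3 and 7 without KO replicate 2. Of 39 autophagy genes 2 were higher and 6 lower, and the lower count was 0 without WT replicate 1, 3 without WT replicate 3, 0 without KO replicate 1, 11 without KO replicate 2 and 1 without KO replicate 3, and 0 with the adipocyte covariate.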

How the data were processed

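RNA from 12 hind limb muscles, 3 for each of 2 genotypes on 2 diets, was sequenced after TruSeq library preparation. The authors deposited FPKM values for each sample, and the submitters' processing notes name TopHat2 2.0.8b, Cuffdiff 2.1.1 and mm10 without a role or order. Read counts were not used here, so depth in reads is unknown and no counting interval is given. Groups were taken from sample titles. Each file held 23179 rows, and where a symbol of the 22923 had several, its row of highest mean entered.

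Values were analysed as log2(FPKM + 1) by limma (3.58.1, R 4.3.3), whose prior variance followed the intensity trend. Genes with at least 1 FPKM in at least 3 of 12 samples were kept, and 10978 symbols were not tested. The fit used all 12 samples as 4 group means with KO minus WT on normal chow as the contrast, which pools the spread over 8 residual degrees of freedom, and p-values were two-sided with Benjamini-Hochberg adjustment. The high fat contrast was fitted to its own 6 samples and the interaction to all 12. Exact permutation tests of marker sums used SciPy 1.17.1. Positions come from GENCODE M21, where 22364 symbols were placed, 1865 of them by an older name, and promoters and motifs from RefSeq.

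Named genes were Cryab and Hspb2, all genes past an adjusted p of 0.05, and the 10 largest differences in each direction at p under 0.01 without overlap, at least 1 FPKM in the higher group and more than 10 Mb from Cryab. To these were added up to 10 genes at p under 0.01 on chow and under 0.05 on high fat diet, up to 5 genes near Cryab with the lowest p (all 5 are named), up to 4 members per list with the lowest p, and the members a list is known by. A few items chosen by these rules are not reported here. The comparison, the 48 gene lists and the rules were chosen with earlier results of these data known. Alternatives covered the pseudocount, the filter, scaling, values of 0, the samples fitted, the genotype field, a replicate block, marker covariates and libraries left out. In simulated data for this comparison, 200 of 11945 genes were changed. Of genes changed by 1 on the log2 scale 87% passed the adjusted threshold, and of those changed by 2, 96% did. Of unchanged genes 4.91% had p under 0.05. The simulation gave each gene independent noise, whereas the markers of a cell type moved together across the real libraries. It therefore cannot tell how many of the observed calls would arise without a genotype effect.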

Additional observations from a re-analysis of the deposited data

How the results depend on the processing

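The number of genes past the adjusted threshold, 7 on normal chow, was 4 with a replicate block, 4 in a fit to the 6 normal chow samples alone and 0 with genotypes from the genotype field, which places KO replicate 3 with WT. With that field 218 genes had an unadjusted p under 0.05, and the log2 fold changes of Cryab and Hspb2 were -5.94 and -4.40 and no longer passed. At an unadjusted p under 0.05 the 1990 genes became 1108 with the lymphoid covariate, 291 with the adipocyte covariate and 317 without the 3 libraries rich in lymphocytes. With single libraries left out, the counts ran from 4 to 14 past the adjusted threshold and from 615 to 3563 at the unadjusted one, Cryab from -7.92 to -7.63 and Hspb2 from -6.02 to -5.84. The cause of these shifts was not tested. The fit without the 3 libraries rich in lymphocytes has KO replicate 2 as its only KO library on chow, so its count is not comparable with the others. Of 459 values of named genes under the alternatives, 423 kept their direction and side of the threshold, 34 lost and 2 gained a call, and none reversed. Most named genes had not passed the adjusted threshold with all libraries, so most of these values had no call to lose. Serpina3h, Rprml and Vipr2 each kept theirs in only 2 of the 6 fits with a chow library left out. Same-numbered WT and KO libraries on chow had deviations from their group means correlated at -0.81 to -0.27. These correlations followed which libraries were rich in lymphocytes. They therefore cannot tell whether replicate numbers mark samples that were handled together. With the replicate block Rprml, Serpina3h and Vipr2 had adjusted p-values of 0.12, 0.058 and 0.094. The 508 genes shared with high fat diet were 379 with the block and 339 to 537 without single high fat libraries. Depth could not be read in counts, and low FPKM values carry the largest relative error.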

Other observations

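Some listed genes belong to no comparison above. Of 37 antioxidant genes and NRF2 targets, 7 were higher and 5 lower in KO muscle at an unadjusted p under 0.05, and with the adipocyte covariate 1 and 0 were. Their lower count was 0 without WT replicate 1, 2 without WT replicate 3, 1 without KO replicate 1 and 0 without KO replicate 3. Gsta3, a glutathione transferase, was 1.02, 1.47 and 1.82 FPKM in WT and 4.47, 2.95 and 6.75 FPKM in KO muscle (1.19 ± 0.23 SE, adjusted p = 0.193), and Gpx3, the secreted glutathione peroxidase, was 124, 143 and 172 and 275, 204 and 225 (0.68 ± 0.18 SE, adjusted p = 0.263). Of 21 circadian clock genes, Per1, a period gene, was higher at 9.11, 13.7 and 14.1 against 16.6, 18.7 and 22.5 (0.62 ± 0.18 SE, adjusted p = 0.269), and 3 were lower. This lower count was 1 without WT replicate 1, 6 without WT replicate 2, 0 without WT replicate 3, 0 without KO replicate 1, 5 without KO replicate 2 and 1 without KO replicate 3, and 0 with the adipocyte covariate. Of the lower genes, Bhlhe41, a repressor of the clock, was 16.8, 16.5 and 17.2 in WT and 12.04, 14.2 and 13.4 in KO muscle (-0.33 ± 0.13 SE, adjusted p = 0.281). Times of tissue collection were not used here.

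Of 100 keratin and keratin-associated genes, 4 were tested. Krt80, a keratin of epithelia, was 0.517, 0.809 and 0.782 FPKM in WT and 0.989, 1.37 and 3.08 FPKM in KO muscle (0.66 ± 0.25 SE, adjusted p = 0.281), and Krt18, a keratin of simple epithelia, was 0.208, 0.0787 and 0.0821 and 0.469, 1.34 and 8.79 (1.53 ± 0.59 SE, adjusted p = 0.281). Of 31 genes of the dystrophin complex and membrane repair, 2 were higher and 5 lower, and 8 and 0 were on high fat diet. The chow lower count was 0 without WT replicate 1 and 1 without WT replicate 3. It was 0 without KO replicate 1, 1 without KO replicate 3 and 1 with the adipocyte covariate. Dtna, the dystrobrevin that binds dystrophin, was 32.7, 28.4 and 32.2 in WT and 22.2, 29.3 and 23.2 in KO muscle (-0.32 ± 0.12 SE, adjusted p = 0.281), and Utrn, the dystrophin relative utrophin, was 2.46, 3.20 and 3.42 and 4.30, 3.89 and 3.96 (0.33 ± 0.13 SE, adjusted p = 0.281). None of 26 immediate early genes and none of 13 proliferation genes had an unadjusted p under 0.05 in limma.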
